A study of Mus musculus with 14 samples.

Results

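The 8 RNAs described are long noncoding RNAs (lncRNAs) of brain, chosen by name: Meg3, Rian, Mirg, Malat1, Neat1, Miat, Snhg11 and Peg13. All 8 were among the 23412 genes of the count table, and all 8 passed the filter on low counts, which left 14566 genes to be tested. Levels were read from RNA-seq of mouse cerebral cortex, in 4 control mice (1, 3, 6 and 8) and 4 mice lacking Fmr1 (KO; 2, 4, 5 and 7). The labels write the control genotype as Rpl22flox/flox;CamKCre+ and the KO genotype as Fmr1X-Y; Rpl22flox/flox;CamKCre+, so both groups carry the floxed Rpl22 allele and the Cre. Fmr1 encodes FMRP, an RNA-binding protein that associates with mRNAs on ribosomes. CamK promoters are active in forebrain excitatory neurons, and the tissue source is labelled as a CAMKIIa-Ribotag brain, a design in which Cre switches a ribosomal protein allele in those cells. The RNA came from whole lysates, so all cell types of the tissue contributed, and age was not given in the sources used here.

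Long noncoding RNAs are transcripts that work, where a function is known, without a long open reading frame. Meg3, Rian and Mirg lie one after another in the imprinted Dlk1-Dio3 domain, are expressed from the maternal chromosome, and carry microRNAs and small nucleolar RNAs inside their transcripts. Malat1 is a nuclear RNA of splicing-factor-rich speckles, and Neat1, its neighbour on the same chromosome, is the scaffold of nuclear bodies called paraspeckles. Miat, also known as Gomafu, is a neuronal RNA that stays in the nucleus. Snhg11 is a host gene of small nucleolar RNAs. Peg13 is expressed from the paternal chromosome and lies inside an intron of Trappc9, in an imprinted cluster with Kcnk9.

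Levels are given as CPM, the count of a gene scaled to its library's size after TMM normalization, from the columns of the table whose headers end in exon. Total exon counts per library ran from 16351772 to 20793293. Fmr1, the check of the labels, averaged 96.4 CPM (SD 13, n = 4) in the control libraries, and the KO libraries averaged 25.6 CPM (SD 2.06, n = 4). The libraries were not equally far from each other. In a pairwise comparison over genes with at least 20 counts, the chi-square per degree of freedom, which is near 1 when libraries differ by counting noise alone, was 1.23 to 1.5 among KO mice 2, 4 and 7 but 10.1 to 11.0 between these and KO mouse 5. Among controls it was 3.04 for mice 1 and 3, 5.42 and 6.10 for these with mouse 6, and 6.95 to 18.4 for pairs with mouse 8. KO mouse 5 and control mouse 8 thus stood apart, and KO mice 2, 4 and 7 were nearly alike, so results are given with and without mice 5 and 8. Markers of excitatory cortical neurons were present in every library, with a summed level of 3260 to 3760 CPM in controls and 3990 to 4190 CPM in KO mice.

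Of the 8 lncRNAs, 1 differed with genotype. Peg13 rose in KO mice (edgeR quasi-likelihood test, adjusted p = 0.00297), and the other 7 were not called. Over all genes tested, 1246 (8.55%) were called at an adjusted p under 0.05, 613 (4.21%) higher and 633 (4.35%) lower in KO mice. A single call among 8 is a share of 12.5%, near this background for so small a set. At an unadjusted p under 0.05 there were 2 of the 8 (Peg13 and Neat1), against 24.1% of all genes tested. The median log2 fold change of the 8 was 0.10, against 0.0018 over all genes tested.

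Peg13 was at 265 CPM in control mouse 1, 259 in mouse 3, 270 in mouse 6 and 263 in mouse 8. In KO mice it was at 322 CPM in mouse 2, 319 in mouse 4, 311 in mouse 5 and 319 in mouse 7. All KO libraries lay above all control libraries, as did 7.70% of the genes tested (15.8% did not overlap in either direction). The means were 264 ± 4.57 CPM and 318 ± 4.86 CPM (SD, n = 4 each), a log2 fold change of 0.27 ± 0.043 (SE), or 1.20-fold. Its log2 values varied less within a genotype (SD 0.0236) than those of nearly all genes: 0.247% of the genes tested had a smaller SD. The difference was similar within each of the 3 title prefixes that the libraries carry, at 0.28 for mice 1 and 2, 0.30 for mice 3 and 4, and 0.24 for mice 5 to 8. It was 0.24 both between mouse 7 and mouse 6 and between mouse 5 and mouse 8, the pair that stood apart. The call did not hold when the nearly identical KO mice 2, 4 and 7 were summed to 1 library (adjusted p = 0.0962, edgeR, a fit in which 0.765% of genes were called), when control mice 1 and 3 were summed as well (0.213) or in mice 5 to 8 alone (0.300), while the log2 fold change stayed between 0.25 and 0.26 in these fits.

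Of 5 genes of the Peg13 cluster and its flank that were tested, 1 (20%) was called, against 8.55% over all genes. Their summed level was 394 to 406 CPM in control libraries and 425 to 436 CPM in KO libraries, while their mean log2 deviation overlapped (-0.05 to 0.02 and -0.01 to 0.05). Trappc9, whose intron holds Peg13 and which encodes a vesicle trafficking subunit, had means of 72.9 CPM (controls) and 72.7 CPM (KO), which differed by 0 ± 0.048 (SE) in log2, with an adjusted p of 0.973 (edgeR). Kcnk9, a potassium channel gene, had 0.04 ± 0.07 (SE), adjusted p = 0.798 (edgeR). Chrac1, a chromatin remodelling subunit, averaged 11.0 CPM (controls) and 9.56 CPM (KO), lower in every KO library than in every control but not called (adjusted p = 0.172, edgeR), and Ptk2, a focal adhesion kinase, had 0.07 ± 0.046 (SE). Eif2c2, listed in the table under this older name of Ago2, the Argonaute protein that carries microRNAs, rose by 0.27 ± 0.043 (SE, adjusted p = 0.00296, edgeR). Its means were 112 ± 1.95 CPM and 134 ± 2.15 CPM (SD, n = 4 each), and all KO libraries lay above all controls. The RNA libraries were strand-specific, but the strand setting of the counting was not given in the sources used here, so intronic reads of Trappc9 and reads of Peg13 cannot be told apart with certainty.

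**Figure D1:**
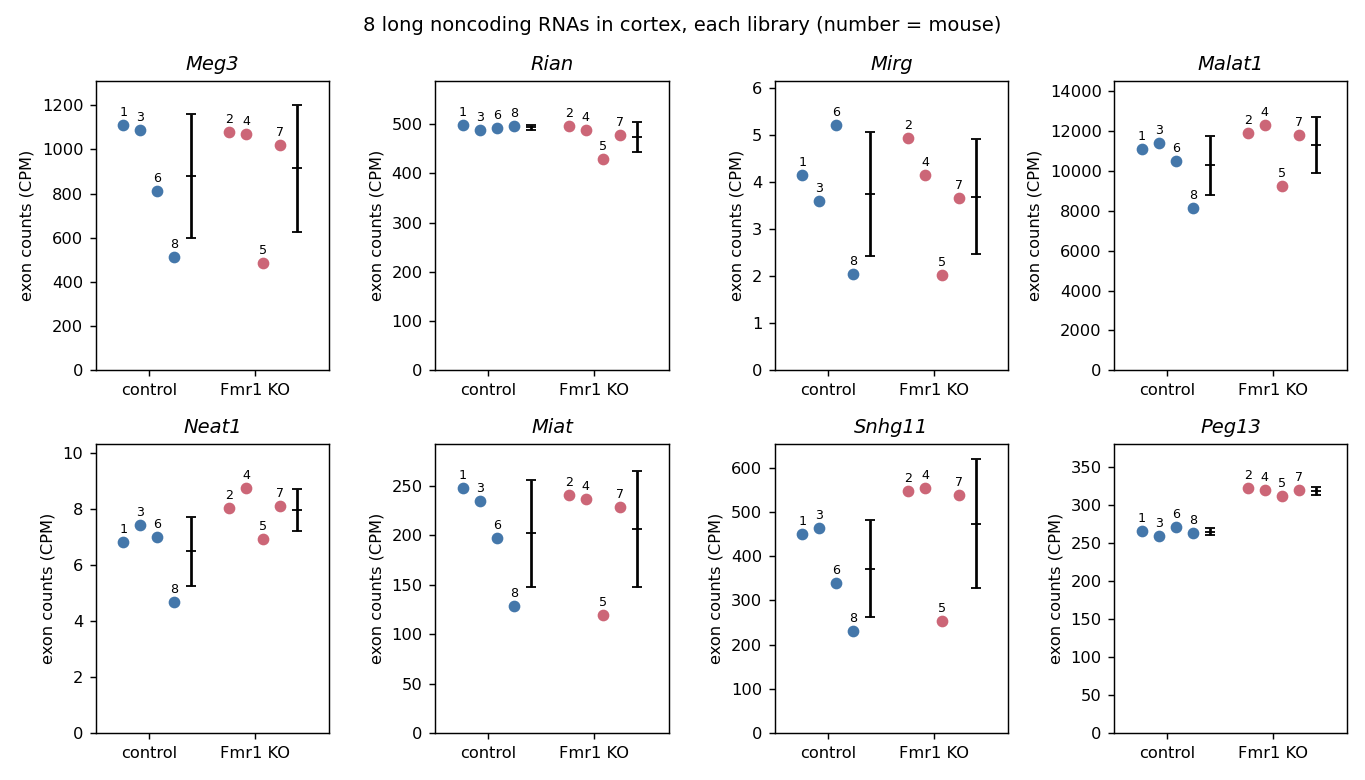
Level of each lncRNA in CPM (vertical axes, linear from 0) in each control (blue) and KO (red) library, numbered by mouse, with the mean and SD of 4 mice beside them. Peg13 separates by genotype, Rian is flat apart from KO mouse 5, and the other 6 are lowest in control mouse 8 or KO mouse 5.

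Of the 3 RNAs of the Dlk1-Dio3 domain, Meg3 and Mirg were low in the same mice and Rian was not, or much less so. Meg3, the first of the domain, was at 1110 CPM in control mouse 1, 1090 in mouse 3, 810 in mouse 6 and 511 in mouse 8. In KO mice it was at 1080 CPM in mouse 2, 1070 in mouse 4, 485 in mouse 5 and 1020 in mouse 7. The genotypes overlapped fully, and the spread came from low values in 1 mouse of each genotype and an intermediate one in control mouse 6. The log2 fold change was 0.05 ± 0.25 (SE, 95% interval -0.49 to 0.59, adjusted p = 0.927, edgeR), with means of 880 ± 282 and 912 ± 286 CPM (SD, n = 4 each). Its within-genotype SD on the log2 scale, 0.542, was larger than that of 97.9% of the genes tested.

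Rian, the next RNA of the domain and a host of small nucleolar RNAs, held steady. It was at 498 CPM in control mouse 1, 488 in mouse 3, 492 in mouse 6 and 497 in mouse 8, and at 497 in KO mouse 2, 489 in mouse 4, 429 in mouse 5 and 477 in mouse 7. Its within-genotype SD was 0.0685 on the log2 scale, smaller than for most genes, with 16.6% of those tested below it. The log2 fold change was -0.06 ± 0.053 (SE, 95% interval -0.18 to 0.05, adjusted p = 0.517, edgeR). Control mouse 8 was within the range of the other controls for Rian but at 50.9% of their mean for Meg3, and KO mouse 5 was at 87.9% and 46.0% of the other KO mice. The ratio of Meg3 to Rian counts was therefore 2.23, 2.23 and 1.65 in control mice 1, 3 and 6 but 1.03 in mouse 8, and 2.13 to 2.18 in KO mice 2, 4 and 7 but 1.13 in mouse 5.

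Mirg, the microRNA-bearing RNA farther along the domain, was scarce, with 32 to 91 counts per library. It was at 4.14 CPM in control mouse 1, 3.60 in mouse 3, 5.21 in mouse 6 and 2.04 in mouse 8, and at 4.93 in KO mouse 2, 4.16 in mouse 4, 2.02 in mouse 5 and 3.66 in mouse 7. Like Meg3 it was lowest in mice 8 and 5, at 47.2% and 47.4% of the other mice of the same genotype, but unlike Meg3 it was highest in control mouse 6. No genotype difference was detectable (log2 fold change 0.0 ± 0.27 SE, 95% interval -0.58 to 0.58, adjusted p = 0.997, edgeR). Without mice 5 and 8 the log2 fold change was -0.0135 with a smaller SE, 0.159.

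The promoters of 5 of the RNAs are shown because 4 of them (Meg3, Mirg, Miat and Snhg11) were lower by more than 0.5 on the log2 scale in both mice 5 and 8 than in the other mice of their genotype, while Rian, which lies between Meg3 and Mirg, varied little. Meg3 has 2 entries, of which the upstream one is shown, and the other held none of the motifs searched. The sequences are the 300 bases around the annotated start in RefSeq (GRCm38.p6), 5′ to 3′ on the gene's strand, and 6 of the 8 RNAs had an entry in that table. Capitals mark exact matches on either strand to any of 4 motifs. One is the core of the cAMP response element (CRE), whose letters are TGACG. Another is the box bound by Sp factors, spelled GGGCGG and called the GC box below. The others are the box that positions transcription starts, spelled TATAAA, and the box bound by NF-Y, spelled CCAAT.
Meg3 (chr12:109540746-109541045, plus strand): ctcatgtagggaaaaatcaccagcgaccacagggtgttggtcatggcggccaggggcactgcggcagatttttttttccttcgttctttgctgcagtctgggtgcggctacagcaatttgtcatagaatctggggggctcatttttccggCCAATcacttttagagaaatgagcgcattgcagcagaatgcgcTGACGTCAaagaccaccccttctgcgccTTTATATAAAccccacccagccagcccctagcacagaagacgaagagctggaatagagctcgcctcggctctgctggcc
Rian (chr12:109603695-109603994, plus strand): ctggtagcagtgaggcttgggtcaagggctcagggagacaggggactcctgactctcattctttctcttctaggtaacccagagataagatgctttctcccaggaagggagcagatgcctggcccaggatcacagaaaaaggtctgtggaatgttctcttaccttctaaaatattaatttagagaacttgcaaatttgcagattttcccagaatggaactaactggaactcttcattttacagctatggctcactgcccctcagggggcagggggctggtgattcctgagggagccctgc
Mirg (chr12:109734731-109735030, plus strand): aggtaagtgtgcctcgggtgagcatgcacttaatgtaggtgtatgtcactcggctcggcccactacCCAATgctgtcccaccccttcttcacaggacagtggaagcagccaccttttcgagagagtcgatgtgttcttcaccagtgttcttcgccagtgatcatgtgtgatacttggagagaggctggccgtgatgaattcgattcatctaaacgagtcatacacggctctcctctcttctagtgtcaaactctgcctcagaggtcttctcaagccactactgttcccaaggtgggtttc
Miat (chr5:112228899-112229198, minus strand): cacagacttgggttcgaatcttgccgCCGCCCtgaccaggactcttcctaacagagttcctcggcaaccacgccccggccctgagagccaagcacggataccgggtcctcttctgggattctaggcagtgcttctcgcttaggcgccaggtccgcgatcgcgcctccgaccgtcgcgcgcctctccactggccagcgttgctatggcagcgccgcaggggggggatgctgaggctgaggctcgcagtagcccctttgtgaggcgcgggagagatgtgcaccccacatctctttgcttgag
Snhg11 (chr2:158375463-158375762, plus strand): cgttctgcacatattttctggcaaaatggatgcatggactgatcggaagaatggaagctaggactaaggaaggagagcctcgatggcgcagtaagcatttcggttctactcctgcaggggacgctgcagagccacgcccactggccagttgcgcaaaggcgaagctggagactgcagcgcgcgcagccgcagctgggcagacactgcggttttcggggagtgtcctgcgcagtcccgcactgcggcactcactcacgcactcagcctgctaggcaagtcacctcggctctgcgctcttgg

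The Meg3 window held a full CRE, TGACGTCA, in which the core matches on both strands, together with 1 match to the NF-Y box and a stretch in which TATAAA matches on both strands with overlap. The full CRE occurred in 1.79% of the 32851 RefSeq promoter windows, its core in 20.8%, the start-positioning box in 13.6% and the NF-Y box in 37.4%. The Mirg window held 1 match to the NF-Y box. The window of Malat1, not shown, which was also lowest in mice 5 and 8 but by less, held 3 CRE cores and no full CRE, with 47% G or C and 10 CpG. The Miat window held 1 GC box, which 35.7% of windows have, and the Rian and Snhg11 windows held none of these letters. Base composition differed too. The Miat and Snhg11 windows had 64.3% and 60.0% G or C and 25 and 21 CpG. Meg3 had 53.7% and 13 CpG, Mirg had 51.3% and 10 CpG, and the Rian window had 49.3% and 0 CpG. The medians over all windows were 52.7% and 7 CpG. Whether motifs or base composition have a part in the low values of mice 5 and 8 was not tested. Use of each annotated start in these libraries was not tested either.

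Miat was at 248 CPM in control mouse 1, 235 in mouse 3, 197 in mouse 6 and 128 in mouse 8. In KO mice it was at 241 CPM in mouse 2, 237 in mouse 4, 119 in mouse 5 and 229 in mouse 7. Its order of libraries was nearly that of Meg3, and the genotypes overlapped. The log2 fold change was 0.04 ± 0.21 (SE, 95% interval -0.43 to 0.50, adjusted p = 0.945, edgeR), and the means were 202 ± 53.9 and 207 ± 58.4 CPM (SD, n = 4 each).

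Snhg11 was at 451 CPM in control mouse 1, 465 in mouse 3, 340 in mouse 6 and 230 in mouse 8. In KO mice it was at 548 CPM in mouse 2, 555 in mouse 4, 254 in mouse 5 and 538 in mouse 7. KO mice 2, 4 and 7 lay above all controls, but KO mouse 5 lay below all controls except mouse 8. The log2 fold change was 0.35 ± 0.24 (SE, 95% interval -0.16 to 0.86, adjusted p = 0.400, edgeR), with means of 372 ± 110 and 474 ± 146 CPM (SD, n = 4 each). Without mice 5 and 8 it was 0.39 ± 0.076 (SE), adjusted p = 0.00130 (edgeR). Within the title prefixes the difference was 0.28 for mice 1 and 2, 0.26 for mice 3 and 4, and 0.40 for mice 5 to 8, where it was 0.66 between mouse 7 and mouse 6 and 0.15 between mouse 5 and mouse 8.

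Snhg11 was also the only one of the 8 with values in the other columns of the table, namely RNA columns without the exon suffix and ribosome footprints, the short RNA stretches that ribosomes shield from nuclease. The RNA columns without the suffix held 3.77% to 5.72% of its exon counts. There it was at 34.8, 33.4, 30.2 and 22.5 CPM in control mice 1, 3, 6 and 8, and at 51.9, 51.3, 26.8 and 53.8 CPM in KO mice 2, 4, 5 and 7. KO mice 2, 4 and 7 were again above all controls and mouse 5 was not, and the log2 difference was 0.61 ± 0.18 (SE, adjusted p = 0.0537, edgeR, among 13507 genes of which 7.41% were called and 3.53% called higher). Footprints on Snhg11 were few, with 12, 14 and 22 counts in control mice 1, 3 and 9 and 9, 7 and 15 counts in KO mice 2, 4 and 10. These correspond to 2.37 to 3.90 CPM in controls and 1.57 to 3.14 CPM in KO mice, which overlap, and no difference was detectable at this depth (log2 fold change -0.40 ± 0.36 SE, adjusted p = 0.463, edgeR, with 25.5% of 12158 genes called).

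Count ratios within a library do not depend on how libraries are scaled, and they were formed for all 28 pairs of the 8 RNAs. The ratio of Meg3 to Snhg11 was 2.46, 2.34, 2.38 and 2.22 in control mice 1, 3, 6 and 8, and 1.97, 1.92, 1.91 and 1.89 in KO mice 2, 4, 5 and 7. The genotypes did not overlap, and mice 5 and 8, the lowest of their genotype for both RNAs, had ratios next to those of the other mice of their genotype. The mean ratio was 2.35 ± 0.101 in controls and 1.92 ± 0.0311 in KO mice (SD, n = 4 each; two-sided exact permutation p = 0.0286, which is the lowest value possible with 4 against 4, and 0.160 adjusted over the 28 pairs). The ratio of Miat to Snhg11 did not overlap either, at 0.504 to 0.579 in controls and 0.426 to 0.469 in KO mice. Its exact p was the same. The permutation counts every library as an independent mouse, but KO mice 2, 4 and 7 were nearly identical. The exact p of every ratio may therefore be too low, and the KO SD is largely the spread of nearly identical libraries. Among all genes tested, the ratio to Snhg11 did not overlap between genotypes for 227 (1.56%), Meg3 and Miat among them. Snhg11 was low in mice 5 and 8, and Meg3 and Miat shared these low values. For a gene without them the ratio to Snhg11 tends to overlap, so 1.56% is a low background for Meg3 and Miat. Unlike their ratios to Snhg11, the ratio of Meg3 to Miat overlapped. It was 3.99 to 4.63 in controls and 4.06 to 4.50 in KO mice (exact two-sided permutation test, p = 0.857).

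Of the 28 pairs, 5 (17.9%) did not overlap between genotypes, against 11.7% of the pairs formed between these RNAs and all tested genes. Besides the pairs with Snhg11 these were Rian to Peg13 (1.82 to 1.89 in controls, 1.38 to 1.54 in KO mice), Rian to Neat1 (65.8 to 106 and 55.8 to 62.0) and Malat1 to Neat1. No pair passed a threshold of 0.05 after adjustment over the 28.

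**Figure D2:**
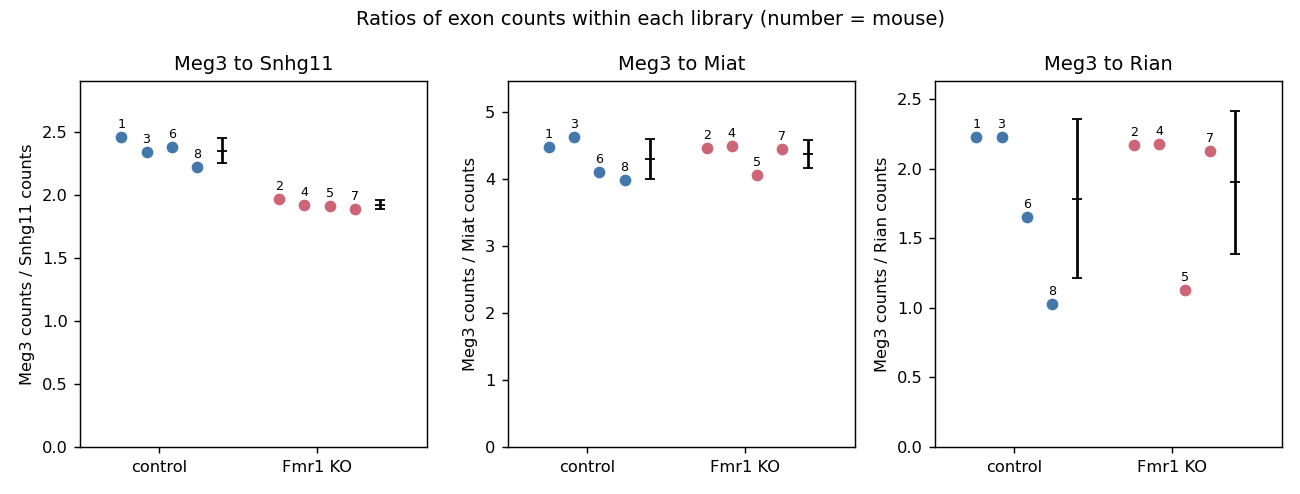
Ratio of exon counts of 2 lncRNAs (vertical axes, linear from 0) in each control (blue) and KO (red) library, numbered by mouse, with the mean and SD of 4 mice. Meg3 to Snhg11 separates by genotype (2.22 to 2.46 against 1.89 to 1.97), Meg3 to Miat does not, and Meg3 to Rian is low in control mouse 8 and KO mouse 5.

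Malat1 had the highest count of all genes in the table and took 1.24% of the exon counts in KO mouse 4 (95% Wilson interval 1.23% to 1.24%, counting error only). It was at 11100 CPM in control mouse 1, 11400 in mouse 3, 10500 in mouse 6 and 8130 in mouse 8, and at 11900 in KO mouse 2, 12300 in mouse 4, 9240 in mouse 5 and 11800 in mouse 7. In each genotype 1 mouse was low, mouse 8 at 74.1% of the other controls and mouse 5 at 77.0% of the other KO mice, and the genotypes overlapped. The log2 fold change was 0.14 ± 0.11 (SE, 95% interval -0.10 to 0.38, adjusted p = 0.486, edgeR). Without mice 5 and 8 it was 0.13 ± 0.036 (SE, adjusted p = 0.0132, edgeR), and within the title prefixes it was 0.11, 0.11 and 0.17.

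Neat1 had 85 to 183 counts per library. It was at 6.81 CPM in control mouse 1, 7.42 in mouse 3, 7.01 in mouse 6 and 4.68 in mouse 8, and at 8.02 in KO mouse 2, 8.75 in mouse 4, 6.93 in mouse 5 and 8.09 in mouse 7. KO mice 2, 4 and 7 lay above all controls and mouse 5 among them. The log2 fold change was 0.30 ± 0.14 (SE, 95% interval 0.01 to 0.59), with an unadjusted p of 0.0441 and an adjusted p of 0.194 (edgeR). It was 0.23 ± 0.10 (SE, adjusted p = 0.106, edgeR) without mice 5 and 8. Malat1 and Neat1 deviated from their means in like manner, and their ratio was 1490 to 1740 in controls and 1330 to 1490 in KO mice, ranges that meet at 3 digits but do not overlap (exact two-sided permutation test, p = 0.0286, adjusted p = 0.160 over the 28 pairs).

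Without mice 5 and 8, then, 3 of the 8 RNAs were called, Peg13, Snhg11 and Malat1, all higher in KO mice. In that fit 25.4% of 14607 genes were called and 13.4% were called higher. KO mice 2, 4 and 7 make up its whole KO group, so its spread is that of nearly identical libraries.

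**Figure D3:**
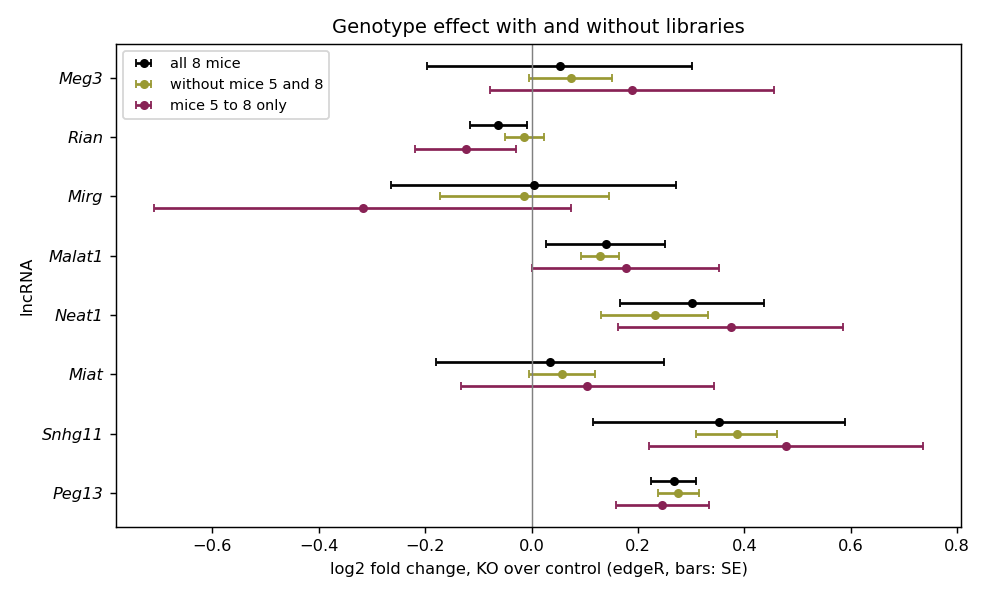
Log2 fold change of KO over control (horizontal axis, edgeR, bars are SE) of the 8 lncRNAs with all 8 mice (black), without mice 5 and 8 (olive) and in mice 5 to 8 only (purple). Peg13 lies between 0.25 and 0.28 in all 3 fits, while Meg3, Mirg and Miat lie near 0 with all mice and have wide errors.

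Low values in mice 8 and 5 were shared by many, but not all, of the 8 RNAs. Relative to the other mice of the genotype, the log2 difference in mouse 8 and mouse 5 was -0.96 and -1.12 for Meg3, -1.06 and -1.06 for Mirg, -0.85 and -1.10 for Snhg11, and -0.82 and -0.98 for Miat. It was -0.43 and -0.38 for Malat1 and -0.59 and -0.26 for Neat1. It was 0.01 and -0.19 for Rian and -0.01 and -0.04 for Peg13. Together the 8 RNAs took 0.980% of the counts of mouse 8 and 1.05% of mouse 5, against 1.26% to 1.4% in the other controls and 1.44% to 1.51% in the other KO mice.

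Among the 471 tested genes that RefSeq types as lncRNA, 25 (5.31%) were lower by more than 0.5 on the log2 scale in both mice, against 163 of 13896 protein-coding genes (1.17%). Of the 8 RNAs, 4 met this (Meg3, Mirg, Miat and Snhg11), and their low values had been seen before this step was set. The median lncRNA differed by -0.03 in mouse 8 and -0.08 in mouse 5, so most lncRNAs did not share it. Genes whose log2 levels were closest to Snhg11 over the 8 libraries, by root mean square difference among 13758 genes, were A330023F24Rik (0.0799) and Kcnq1ot1 (0.0931), an imprinted lncRNA. For Miat they were A330076H08Rik (0.0590) and C230091D08Rik (0.0794), both typed as lncRNA, and for Meg3 they were the pseudogene Tmem181b-ps (0.0809) and Emp1 (0.0845). Meg3 and Miat were 0.0757 apart, closer than either was to any of these except Miat to A330076H08Rik. The nearest genes to Malat1 (Ehd2, 0.0461), Neat1 (Slc40a1, 0.0786), Mirg (Hist1h3a, 0.113), Rian (Fam120b, 0.0231) and Peg13 (Ttyh3, 0.0319) were protein coding.

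Some marker lists moved with the same mice. All 10 endothelial markers were lower in mouse 8 than in the other controls and lower in mouse 5 than in the other KO mice. Their summed level was 152 CPM in mouse 8 and 171 CPM in mouse 5, against 202 to 275 CPM in the other controls and 258 to 271 CPM in the other KO mice. Choroid plexus markers went the other way, with summed levels of 664 CPM in mouse 8 and 465 CPM in mouse 5 against 355 to 390 CPM and 342 to 344 CPM. Hypothalamus markers summed to 74.2 CPM in mouse 8 against 83.2 to 102 CPM in the other controls, and to 42.2 CPM in mouse 5 against 44.1 to 50 CPM in the other KO mice. Ttr, the choroid plexus transport protein, was at 192 CPM in mouse 8 and 73.5 CPM in mouse 5 and at most 6.77 CPM in the rest, and 4 of the 10 markers were too low to be tested, though none was at 0 in all libraries. The 12 immediate early genes, which neuronal activity induces, were all called higher in KO mice (4.21% of all genes were), but their mean log2 deviation was -0.18 in control mouse 8 and -0.10 in KO mouse 5, against -1.02 to -0.92 in the other controls and 1.03 to 1.07 in the other KO mice. For excitatory, inhibitory and striatal neuron, astrocyte, oligodendrocyte and microglial markers the mean log2 deviation in these mice was -0.01 to 0.19. The part of these differences in the lncRNA levels was not tested. In bulk tissue, fewer cells of a type and less RNA per cell cannot be told apart.

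**Figure D4:**
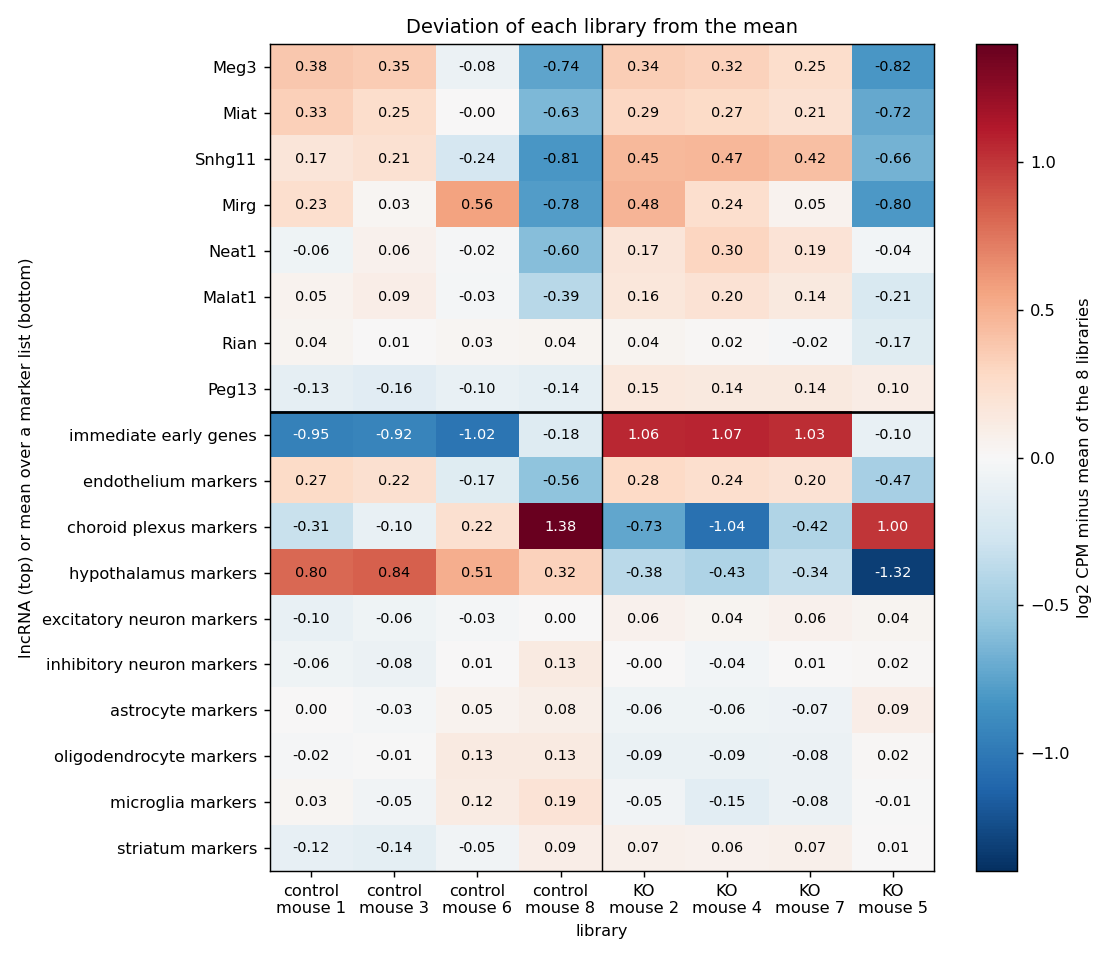
Log2 CPM of each lncRNA (top) and mean log2 CPM of each marker list (bottom) in each library, as the difference from the mean of the 8 libraries (colour and printed value). Meg3, Miat, Snhg11 and Mirg fall to between -0.82 and -0.63 in control mouse 8 and KO mouse 5, where endothelium markers are low and choroid plexus markers are high, while Peg13 follows genotype.

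Hypothalamus markers, 9 of 10 of which were tested, also differed with genotype. Of these 6 were called lower in KO mice (4.35% of all genes were), with a list median of -0.71, and summed levels were 74.2 to 102 CPM in controls and 42.2 to 50 CPM in KO mice. The summed levels of 2 other cell type marker lists did not overlap between genotypes. Excitatory neuron markers, given above, were higher in KO mice, with 1 of 10 called higher and 1 lower (4.21% and 4.35% of all genes). Oligodendrocyte markers summed to 8370 to 8890 CPM in control libraries and 7730 to 7830 CPM in KO libraries, with 2 of 10 called lower, against the same 4.35%. The part of these 3 lists in the Peg13 difference was not tested.

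Other genes of each RNA's surroundings were read from lists. In the Dlk1-Dio3 domain and its flanks, 1 of 10 tested genes (10%) was called, near the 8.55% called over all genes: Dio3, which encodes the enzyme that inactivates thyroid hormone and lies at the far end of the domain, differed by -0.87 in log2 (SE 0.22, adjusted p = 0.0301 with edgeR) and fell from 1.60 to 0.882 CPM. Dlk1, the paternally expressed gene at the other end, was at 6.21 and 5.78 CPM (adjusted p = 0.653, edgeR). Rtl1 was at 0.924 and 0.691 CPM (adjusted p = 0.349, edgeR), and RefSeq lists it as overlapping Meg3 and Rian. Of 57 rows for microRNA genes of the domain, 4 had no count in any library and none exceeded 40 counts in a library. Of the 5 that were tested none was called (edgeR, 0 at an unadjusted p under 0.05, and 0 with DESeq2). The RNA libraries were not made with a small-RNA kit, and mature microRNAs were not measured separately.

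Calls among the neighbours and partner proteins of the other RNAs were few, and for lists this small their shares are read against the same 8.55%. Beside Malat1 and Neat1, 0 of 9 neighbouring genes were called with edgeR (2 at an unadjusted p under 0.05, and 0 with DESeq2). The paraspeckle proteins, which assemble on Neat1, had a median of 0.02, with 0 of 27 called (edgeR; 3 at an unadjusted p under 0.05, and 1 with DESeq2). Of 28 proteins of nuclear speckles, where Malat1 resides, 2 (7.14%) were called. Srsf4, a splicing factor, rose by 0.46 ± 0.095 (SE, adjusted p = 0.0118, edgeR) and Rnps1, a factor that couples splicing to mRNA export and decay, fell by 0.36 ± 0.073 (SE, adjusted p = 0.0112, edgeR). Next to Miat, 1 of 8 genes (12.5%) was called, Tfip11, a factor of spliceosome disassembly, which rose by 0.51 ± 0.072 (SE, adjusted p = 0.00156, edgeR). Next to Snhg11, 1 of 5 (20%) was called. This was Slc32a1, the vesicular GABA transporter and an inhibitory neuron marker, which rose by 0.38 ± 0.060 (SE, adjusted p = 0.00260, edgeR). The 10 inhibitory neuron markers did not rise as a list, with a median of -0.02, 1 called higher and 2 called lower (Pvalb and Reln). Miat and Snhg11 themselves were not called in that fit.

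Among other noncoding RNAs, 44 of 58 found in the table were tested, 1 was called higher and 5 lower (13.6% in all, against 8.55% over all genes), with a list median of -0.04. Among those called, the largest falls were those of H19, an imprinted lncRNA, by 0.91 ± 0.25 (SE, adjusted p = 0.0402, edgeR), Snhg8, a small nucleolar RNA host, by 0.64 ± 0.11 (adjusted p = 0.00360) and Rmrp, the RNA of RNase MRP, by 0.54 ± 0.14 (adjusted p = 0.0363). The one that rose was 1700020I14Rik, by 0.50 ± 0.064 (SE, adjusted p = 0.000944, edgeR), named here after its value was seen. Among 49 other imprinted genes tested, 2 were called higher and 6 lower, with a median of -0.05. Besides H19 the largest changes among those called were falls of Ddc, an enzyme of monoamine synthesis, by 0.81 ± 0.11 (SE, adjusted p = 0.00122, edgeR) and of Dcn, an extracellular matrix proteoglycan, by 0.80 ± 0.079 (SE, adjusted p = 0.000205, edgeR). The called share of this list was 16.3%, against 8.55% over all genes.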

How the data were processed

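The authors deposited 1 table of whole-number counts per gene, with no normalization. Per the submitters' processing notes, Bowtie2, STAR 2.5, featureCounts, Subread 1.4.6 and the builds mm9 and mm10 were used, with no role given. The strand setting, annotation and counted region were not given in the sources used here. Per the labels' protocols, ribosomal RNA was depleted from total RNA and libraries were strand-specific. Columns ending in exon were used, because 7 of the 8 lncRNAs are among 2849 genes with no value in the other columns. Genotype was tested with edgeR 4.0.16 (R 4.3.3; quasi-likelihood, TMM, filterByExpr at a minimum count of 10, two-sided), with Benjamini-Hochberg adjustment over all 14566 genes. DESeq2 1.42.0 was an alternative. Standard errors came from the F statistic. P-values measure the spread between the mice as labelled. The method was tested on simulated exon counts, where it recovered 100% of changes of 1 in log2 and 94% of changes of 0.5. Results for smaller changes, nearly identical libraries or libraries that stand apart were not obtained there. The rule named at most the 3 called genes of largest change from each list and, per lncRNA, the 2 nearest genes in root mean square difference. Trappc9, Kcnk9, Chrac1, Ptk2, Dlk1, Rtl1, Ttr and 1700020I14Rik are named outside this rule, after their values were seen. The lncRNAs and lists were chosen with earlier results of these data known. RefSeq (GRCm38.p6) gave gene types and promoters, and all 8 symbols matched.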

Additional observations from a re-analysis of the deposited data

Results flagged for a closer look

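In 16 groups (8 lncRNAs in 4 control or 4 KO mice), the gap between the most distant library and its nearest neighbour was compared with the group's whole range. It was above Dixon's 95% critical value in 3 groups. Chance alone passes it in about 1 in 20 groups, and these groups share libraries. All 3 were low values of KO mouse 5: Meg3 at 485 CPM (gap 0.9 of the range), Miat at 119 CPM (0.898) and Snhg11 at 254 CPM (0.942). KO mice 2, 4 and 7 were nearly alike over all genes, which narrows the range the gap is set against. Control mouse 8 was similarly low for these RNAs (511, 128 and 230 CPM), but control mouse 6 lay between it and mice 1 and 3, and its gaps were 0.499, 0.574 and 0.469.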

How the results depend on the processing

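Peg13 kept its direction in all 19 alternatives (0.25 to 0.30 on the log2 scale) and its call in 16. Snhg11, Malat1 and Neat1 stayed higher in KO mice throughout. Of the 19 alternatives, 1 (library sizes without Malat1 and Meg3) returned the main values unchanged and is no separate check. Snhg11 and Malat1 became called in mice 1 to 4 only (adjusted p = 8.74e-06 and 0.00593, edgeR) and without mice 5 and 8, the latter chosen after seeing the data. The number of lncRNAs called was 3 in each of these, and 0 in mice 5 to 8 only, with KO mice 2, 4 and 7 summed, with control mice 1 and 3 also summed, and in the columns without the exon suffix, which hold Snhg11 alone of the 8. Over all genes the number called was 3717 in mice 1 to 4 only, 3712 without mice 5 and 8, 19 in mice 5 to 8 only, 113 with the KO sum and 32 with both sums. Leaving out 1 mouse gave 516 (KO mouse 2) to 1888 (control mouse 8). It gave 526 without KO mouse 4, 539 without KO mouse 7, 627 without control mouse 6 and 658 without control mouse 1. On plain library sizes 529 were higher and 700 lower.

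Uncalled values changed sign in several fits, and the cause was not tested. Meg3 was at -0.19 with the KO sum, -0.0615 with both sums and -0.0305 in mice 1 to 4 only, Miat at -0.17, -0.0776 and -0.0081, and Rian at 0.0048 in mice 1 to 4 only. Mirg was at -0.12 with the KO sum, -0.11 with both sums, -0.32 in mice 5 to 8 only, -0.0111 with DESeq2, -0.0031 on plain library sizes, -0.0116 with the title prefix as a block and -0.0135 without mice 5 and 8. Leaving out 1 mouse gave -0.14 to 0.26 for Meg3, -0.13 to 0.22 for Miat and -0.20 to 0.20 for Mirg. The log2 difference in the Meg3 to Snhg11 ratio stayed between -0.32 and -0.27 over 13 choices of libraries, and that of Miat to Snhg11 between -0.35 and -0.28. Library sizes without Malat1 and Meg3 changed no value shown, to the last digit, so no conclusion is drawn from this alternative. By replicate number, no paired analysis was possible because the control and KO mice share none. The title prefix, which both genotypes share, could be used as a block, and it gave 1037 called genes and 1 called lncRNA, Peg13 (0.27, adjusted p = 0.00792, edgeR). Among the 8 RNAs, Mirg and Neat1 had the fewest counts.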
